A study of Sus scrofa with 5 samples.

Results

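The miRNAs described here are the 4 mature miRNAs of pig (ssc) whose names belong to the miR-106a-363 polycistron alone: ssc-miR-106a, ssc-miR-18b, ssc-miR-20b and ssc-miR-363. They were picked by name from the table of reported miRNAs, which holds 411 mature names, 327 of them with at least 1 read. Small RNA was sequenced from 5 libraries: 2 of blastocysts (BL_1 and BL_2), and 1 each of embryonic stem cell-like (ES-like) cells, pig embryoid bodies (PEBs) and pig fetal fibroblasts (PFFs). BLs were pools of parthenogenetic embryos by the sample sheet, made by activating oocytes without sperm and sampled on day 7. ES-like cells were a line derived from blastocysts made in vitro, grown with stem cell factor and basic FGF on mouse embryonic fibroblast feeders whose division had been blocked with mitomycin C. PEBs were made from colonies of the same line, lifted off the feeders and grown in hanging drops with no cytokines. PFFs were cultured from fetuses without head, limbs and internal organs. The sample sheet lists ES-like cells and PEBs as XX and PFFs as XY. After activation the embryos were kept for a few hours in 6-dimethylaminopurine, a kinase inhibitor used to complete activation, which the labels and methods name for no other group.

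miRNAs are short RNAs that guide Argonaute proteins to mRNAs through their seed, the bases near the 5′ end, and so lower protein output. A polycistron is a single transcript from which several miRNA hairpins are cut. The miR-106a-363 cluster is a paralogue of the miR-17-92 cluster, a well known promoter of cell cycle progression and cell survival, and both are known for high levels in pluripotent and tumour cells of human and mouse. miR-106a and miR-20b belong to the miR-17 family, whose textbook targets include the cell cycle inhibitor CDKN1A. miR-18b is the counterpart of miR-18a, and miR-363 has the seed of miR-92a.

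In the RefSeq gene table of the pig assembly Sscrofa11.1, the hairpin genes lie side by side on chromosome X in the order MIR363-1, MIR92A-2, MIR19B-2, MIR20B-1, MIR18B and MIR106A, between the long non-coding gene LOC110257831 and the protein-coding gene CCDC160. miR-19b and miR-92a also have a hairpin in the miR-17-92 cluster, so their mature reads cannot be credited to either cluster and they were not counted among the members. The count table uses another assembly, so no coordinates are given.

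Depth and library identity bear on all values below. The libraries held from 113743 (BL_1) to 27071931 (PFF) mature miRNA reads, and the sample sheet gives the mature read totals of ES-like cells and PFFs the other way round from the deposited columns, which were assigned here by their titles. miR-143-3p, a miRNA of mesenchymal cells, stood at 101507 RPM (reads per 1000000 mature miRNA reads) in the PFF column and at 13226 RPM in the ES-like column. miR-371-5p, a miRNA of early embryos and pluripotent cells, stood at 324635 and 296148 RPM in the BLs but at only 30.9 RPM in ES-like cells, with 0.185 RPM in PFFs and 0.505 RPM in PEBs. No name of the miR-302 family, which defines human and mouse pluripotent cells, or of its partner miR-367 is among the names of the table, so the pluripotent label of ES-like cells could be checked on miR-371-5p only. The 7 fibroblast and mesenchymal markers, which mouse feeders would also carry, made up 75.6% of reads in PFFs, 40.0% in PEBs, 23.9% in ES-like cells and 3.90% and 7.03% in the BLs. miR-21 alone stood at 522808 RPM in PFFs, 188743 RPM in PEBs and 38578 RPM in BL_1, and miR-199a-3p, miR-199b-3p, miR-199a-5p and miR-214 were higher in PEBs than in PFFs (miR-199a-3p 80420 against 52517 RPM). The counts of miR-199a-3p and miR-199b-3p were nearly equal in every library (1274657 and 1274666 reads in PEBs), so the sum may hold their reads 2 times. The liver miRNA miR-122 made up 10.1% in ES-like cells and 5.41% in PEBs against 0.177% or less elsewhere.

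miR-363 was the most abundant member in every library. It had 262914 reads in ES-like cells and 164902 in PEBs, against 7580 in PFFs and 48 and 920 in BL_1 and BL_2. On the RPM scale, which divides by the total of mature miRNA reads, its levels were 41258 in ES-like cells and 10404 in PEBs, against 280 in PFFs and 422 and 331 in the BLs. ES-like cells were highest and PEBs second, while the BLs and PFFs were low and close together. In ES-like cells miR-363 ranked 5 among all reported miRNAs by read count, against rank 21 in PEBs, 69 and 79 in the BLs and 90 in PFFs. These ranks use the sum over 2 precursors with identical counts, and ranks by the larger precursor count were not computed.

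miR-20b followed the same order of libraries at a lower level. Its reads numbered 46372 in ES-like cells and 27438 in PEBs, with 1106 in PFFs and 10 and 196 in the BLs. These correspond to 7277 RPM in ES-like cells and 1731 RPM in PEBs, with 40.9 RPM in PFFs and 87.9 and 70.4 RPM in the BLs. ES-like cells again stood above PEBs, and both stood far above the other 3 libraries.

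miR-106a, from the far end of the cluster, came next in abundance. It had 20682 reads in ES-like cells and 13852 in PEBs, with 381 in PFFs and 3 and 43 in the BLs. Its levels were 3246 RPM in ES-like cells and 874 RPM in PEBs, with 14.1 RPM in PFFs and 26.4 and 15.5 RPM in the BLs. The value of BL_1 rests on so few reads that it cannot be told from that of BL_2 or PFFs.

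miR-18b was the rarest member. It had no read in either BL library and 31 reads in PFFs, against 347 in PEBs and 700 in ES-like cells. Its levels were 1.15 RPM in PFFs, 21.9 RPM in PEBs and 109.8 RPM in ES-like cells. A count of 0 allows up to 3 reads, that is 26.4 RPM in BL_1 and 1.08 RPM in BL_2, so BL_1 was too shallow to set the PEB level apart from the BL level. The plot of levels by library shows the 4 members in the same order in all 5 libraries, miR-18b being at 0 in the BLs.

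**Figure D1:**
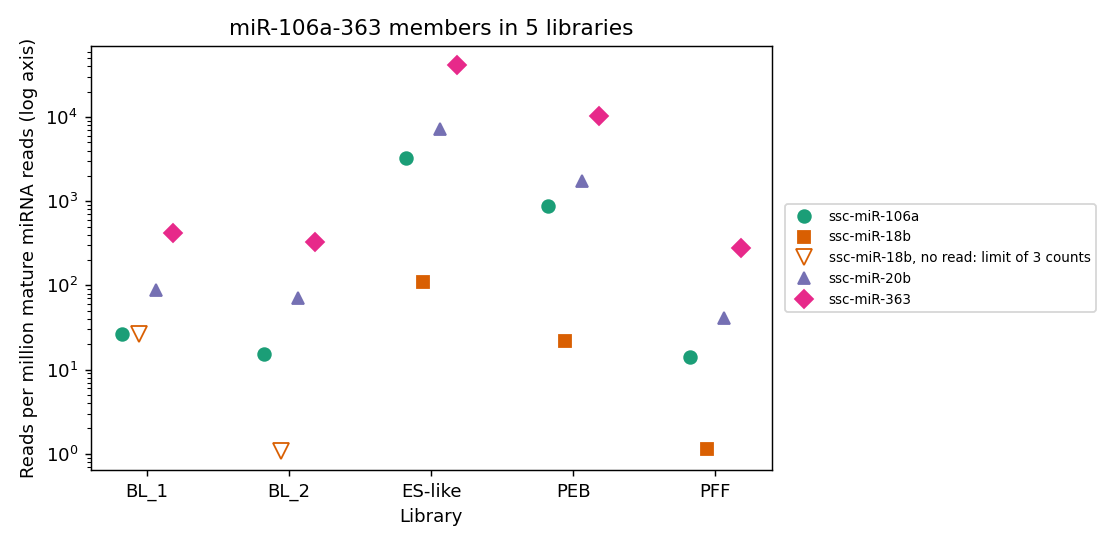
Level of the 4 miR-106a-363 members in each library, in RPM on a log axis, with 1 point per member and library and open triangles at the limit that a count of 0 allows. miR-363 lies between 280 and 41258 RPM and is above the other members in all 5 libraries, and all members are highest in ES-like cells.

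Summed over the 4 members, the cluster accounted for 5.19% of mature miRNA reads of ES-like cells and 1.30% of those of PEBs, against 0.0336% for PFFs, 0.0536% for BL_1 and 0.0417% for BL_2. miR-20b and miR-363 are each listed under 2 precursors with identical counts, so each of their reads may be counted 2 times in these sums. With the larger precursor count in place of the sum, for members and totals alike, the shares were 3.35% for ES-like cells and 0.921% for PEBs, against 0.0201% for PFFs, 0.0339% for BL_1 and 0.0260% for BL_2. The order of the libraries was the same by both ways of counting.

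miR-363 took most of the member reads in every library, while the shares of the rarer members varied more. miR-363 took 83.3% of member reads in PFFs, 79.8% in PEBs, 79.5% in ES-like cells, 79.4% in BL_2 and 78.7% in BL_1. The 95% Wilson intervals of this share, which cover counting error only, were 79.3 to 79.7% in ES-like cells and 82.2 to 84.3% in PFFs, so the PFF share was higher beyond counting error, whereas the BL intervals of 61.9 to 89.4% and 76.0 to 82.4% include the ES-like value. miR-20b took from 12.2% (PFFs) to 16.9% (BL_2). miR-106a took 3.71% in BL_2 (2.47 to 5.54%) and 6.71% in PEBs (6.56 to 6.86%), which differ beyond counting error. miR-18b took 0.341% in PFFs (0.210 to 0.551%), above its share of 0.168% in PEBs (0.146 to 0.194%), and 0.212% in ES-like cells. Counting the larger precursor only, miR-106a (13852 reads) exceeded miR-20b (13719 reads) in PEBs, so the order of these 2 members in PEBs depends on how precursors are counted. The shares depend on it too: miR-106a then took 7.15% in BL_2 and 12.6% in PEBs, and miR-18b took 0.652% in PFFs and 0.314% in PEBs. Counted in this way, miR-363 took 79.7% in PFFs, 76.5% in BL_2, 75.0% in BL_1 and 74.7% in both PEBs and ES-like cells.

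**Figure D2:**
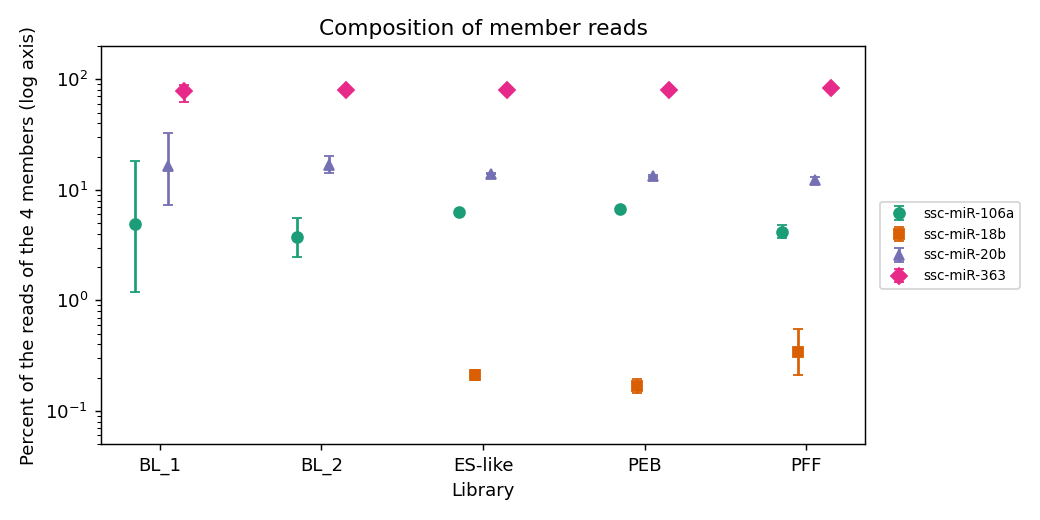
Percent of the reads of the 4 members taken by each member in each library, on a log axis, with 95% Wilson intervals for counting error. With counts summed over precursors, miR-363 holds 78.7 to 83.3% in all 5 libraries. miR-18b, with 0 reads in both BLs, is drawn in the other 3 libraries only.

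The comparison of ES-like cells with PEBs asks how the cluster stood before and after the line was taken off feeders and cytokines. All 4 members were higher in ES-like cells. The ratio of RPM was 3.71 for miR-106a (95% counting interval 3.63 to 3.79), and 5.02 for miR-18b (4.41 to 5.72). It was 4.204 for miR-20b (4.12 to 4.29) and 3.97 for miR-363 (3.93 to 4.00). Among 285 miRNAs with at least 10 reads in either library, 23.5% were higher in ES-like cells by more than 2-fold, and the members ranked 10 (miR-18b), 12 (miR-20b), 15 (miR-363) and 18 (miR-106a) by ratio. The median log2 ratio was 2.03 over the members and 0.19 over all 285. Each type had 1 library, so these intervals hold no spread between cultures and the difference has no replicate check. The size depends on the scale: with TMM factors, the log2 ratios of the members ran from 1.18 (miR-106a) to 1.61 (miR-18b) while the median of all miRNAs moved to -0.53, and with the reads of predicted miRNA loci added to the totals they ran from 1.00 (miR-106a) to 1.44 (miR-18b).

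The comparison of ES-like cells with PFFs sets the line against a somatic cell type. All 4 members were higher in ES-like cells by about 7 on the log2 scale, with a median log2 ratio of 7.34 over the members against 1.02 over all 292 miRNAs tested. The RPM ratio was 231 for miR-106a (95% counting interval 208 to 256) and 178 for miR-20b (164 to 194). For miR-363 it was 147 (142.7 to 152), and for miR-18b, with 31 reads in PFFs, it was 95.9 (67.0 to 142.3). By more than 2-fold, 51% of miRNAs were higher in ES-like cells, so a count of 4 of 4 members says little on its own, and the ranks of the members were 14 (miR-106a), 16 (miR-20b), 21 (miR-363) and 23 (miR-18b) of 292. With TMM factors the log2 ratios were 6.37 for miR-106a, 5.11 for miR-18b, 6.002 for miR-20b and 5.73 for miR-363. The libraries also differed in listed sex, which for genes on chromosome X cannot be told apart from cell type here, and in bulk RNA fewer cells that express a miRNA cannot be told apart from less of it per cell.

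**Figure D3:**
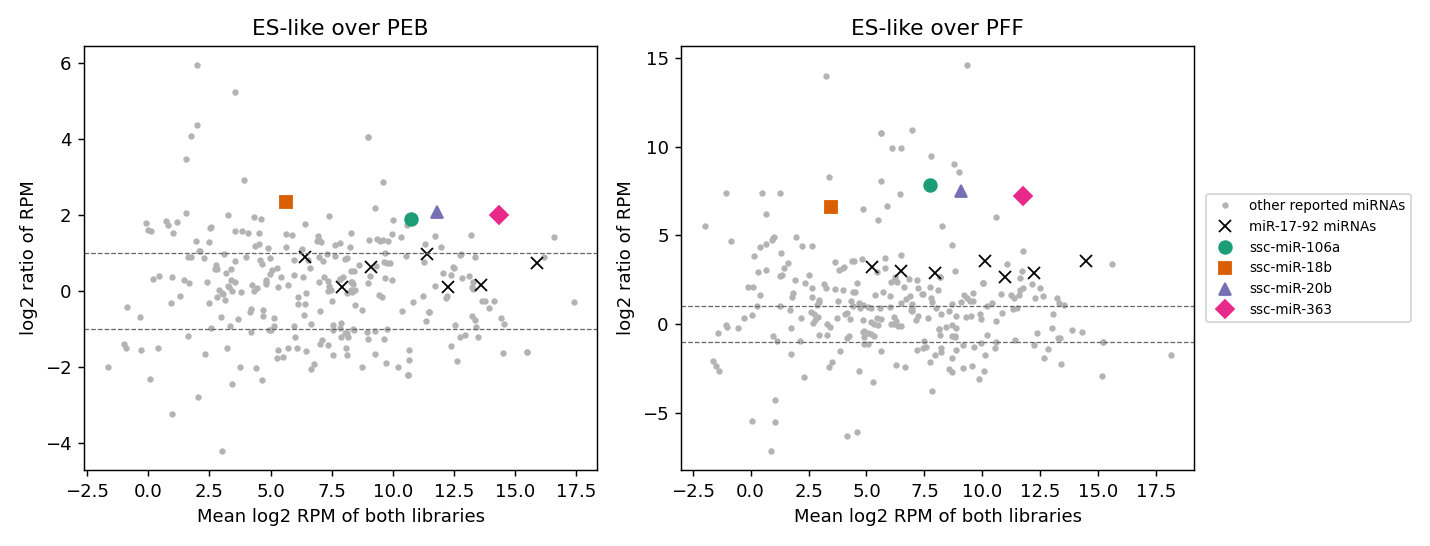
log2 ratio of RPM (ES-like cells over PEBs at left, over PFFs at right) against the mean log2 RPM of both libraries, with 1 point per miRNA with at least 10 reads in either library, those at 0 in either library not drawn, and dashed lines at a 2-fold ratio. The 4 members lie at 1.89 to 2.33 at left and 6.58 to 7.85 at right, above all 7 miRNAs of the miR-17-92 cluster.

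The comparison with BLs sets the line against the embryo stage from which such lines are derived. The members were again higher in ES-like cells, against either BL library. Against BL_2, the deeper one, the RPM ratio was 210 for miR-106a (95% counting interval 156 to 290), 103 for miR-20b (84.7 to 127) and 125 for miR-363 (114 to 137), and miR-18b was at least 102-fold higher. Against BL_1 it was 123 for miR-106a (42.1 to 597), 82.8 for miR-20b (35.5 to 255) and 97.8 for miR-363 (65.7 to 153), and miR-18b was at least 4.16-fold higher. With TMM factors the log2 ratios over BL_2 were 7.01 for miR-106a, 5.98 for miR-20b and 6.26 for miR-363, from 7.71, 6.69 and 6.96 in RPM. The log2 limit for miR-18b with TMM factors was 5.96 over BL_2, from 6.67 in RPM. Over BL_1 this limit was 1.44, from 2.06, or 1.36 with DESeq2 size factors. The intervals of the 2 BL libraries overlap for each of the 3 members with reads. Against the mean RPM of both BLs, the ratio was 155 for miR-106a, 91.9 for miR-20b and 110 for miR-363. Of all miRNAs tested, 45% were higher by more than 2-fold in ES-like cells than in BL_1, 51.9% than in BL_2 and 42% than in the mean of BLs, against 4 of 4 members in each case.

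This difference was tested with the 2 BL libraries as replicates, and the differences of PEBs and PFFs from BLs, which have the same design, were not tested here. In edgeR's quasi-likelihood test over 234 miRNAs with Benjamini-Hochberg adjustment, all 3 members that passed the filter on low counts were higher in ES-like cells. The log2 fold change was 6.17 for miR-363 (SE 0.60, adjusted p = 2.47e-19) and 5.96 for miR-20b (SE 0.68, adjusted p = 1.02e-14). It was 6.92 for miR-106a (SE 0.82, adjusted p = 8.08e-14). By the same edgeR test 25.6% of miRNAs were called higher in ES-like cells. miR-18b was dropped by the filter, which asks for more than 5 reads in at least 2 of the 3 libraries. The test used counts summed over precursors, so reads of miR-20b and miR-363 may enter it 2 times. The test was not run on the larger precursor count. The edgeR fit had 1 residual degree of freedom, and the lone ES-like library was assumed to vary like the BLs. Its dispersion was estimated with information shared across the 234 miRNAs. The p-values therefore do not measure the spread of each member alone.

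The 2 BL libraries differed from each other by less than counting error in all 3 members with reads. The ratio of BL_1 to BL_2 was 1.71 for miR-106a (95% counting interval 0.339 to 5.33), 1.25 for miR-20b (0.396 to 3.01) and 1.28 for miR-363 (0.809 to 1.92). These intervals are wide because BL_1 had 61 member reads in all.

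PEBs stood below ES-like cells but above the other libraries. Against PFFs, the RPM ratio was 62.1 for miR-106a (95% counting interval 56.1 to 68.9), 19.1 for miR-18b (13.2 to 28.6), 42.4 for miR-20b (38.9 to 46.2) and 37.2 for miR-363 (36.0 to 38.4), where 44.7% of all miRNAs were higher in PEBs by more than 2-fold. Against BL_2, it was 56.5 for miR-106a, 24.6 for miR-20b and 31.5 for miR-363, and miR-18b was at least 20.3-fold higher, where 50.2% of miRNAs passed the same threshold. Against BL_1, it was 33.1 for miR-106a, 19.7 for miR-20b and 24.7 for miR-363, where 41.3% passed it, and no ratio can be given for miR-18b. The median log2 ratio of PEBs over PFFs was 5.31 over the members and 0.76 over all 295 miRNAs tested. With DESeq2 size factors the log2 ratios of PEBs over PFFs were 4.95 for miR-106a, 3.25 for miR-18b, 4.40 for miR-20b and 4.21 for miR-363, and with a pseudocount of 10 RPM that of miR-18b was 1.52. Over BL_1 the log2 ratios of PEBs with DESeq2 size factors were 4.38 for miR-106a, 3.63 for miR-20b and 3.96 for miR-363, from 5.05, 4.30 and 4.62 in RPM. The level of the cluster in PEBs was thus nearer to that in ES-like cells than to that in PFFs or BLs, on the log scale. For miR-18b this did not hold with a pseudocount of 10 RPM. Its log2 ratio of ES-like cells over PEBs was then 1.91, against 1.52 for PEBs over PFFs and 1.67 for PEBs over BL_2.

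BLs and PFFs could hardly be told apart by the members. The ratio of BL_2 to PFFs was 1.098 for miR-106a (95% counting interval 0.782 to 1.51), 1.72 for miR-20b (1.38 to 2.14) and 1.18 for miR-363 (1.07 to 1.30). No member was over 2-fold, where 36.6% of all miRNAs were. The ratio of BL_1 to PFFs was 1.87 for miR-106a (0.385 to 5.52), 2.15 for miR-20b (0.696 to 5.05) and 1.51 for miR-363 (0.964 to 2.25), and 1 member, miR-20b, was over 2-fold, where 30.7% of all miRNAs were. The intervals of BL_1 all include 1. With TMM factors no member was over 2-fold, and the share of all miRNAs over 2-fold was not computed. The log2 ratio of miR-363 then turned to -0.26 in BL_1 and -0.53 in BL_2, and that of miR-106a to -0.63 in BL_2. The median log2 ratio of all miRNAs tested fell too, from -0.68 to -1.53 in BL_1 and from -0.00288 to -0.77 in BL_2. miR-18b had 0 reads in BLs and lay at 1.15 RPM in PFFs, too low to set against the limit of 1.08 RPM in BL_2.

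Each member has a counterpart in the miR-17-92 cluster, and the share of the member in the reads of both does not depend on the scale between libraries. miR-106a made up 39.4% of its reads together with miR-17-5p in ES-like cells (95% Wilson interval 38.9 to 39.8%), 15.9% in PEBs (15.7 to 16.2%) and 1.72% in PFFs (1.55 to 1.90%). In BL_1 the share was 7.89% (2.72 to 20.8%), and in BL_2 it was 3.08% (2.29 to 4.12%). The share of miR-106a was thus highest in ES-like cells, with an interval apart from those of the other 4 libraries.

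miR-363 with miR-92a gave the same picture, with BLs lowest. Its share was 34.8% in ES-like cells (95% Wilson interval 34.6 to 34.9%), 18.2% in PEBs (18.1 to 18.3%), 4.10% in PFFs (3.98 to 4.23%), 0.776% in BL_1 (0.522 to 1.15%) and 0.687% in BL_2 (0.627 to 0.752%). miR-92a itself was abundant in BLs, at 53937 and 47804 RPM, against 77449 RPM in ES-like cells and 6544 RPM in PFFs. BLs thus held much miR-92a and little miR-363.

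Of the reads of miR-20b and miR-20a together, miR-20b took 35.9% in ES-like cells and 12.9% in PEBs, against 2.23% in PFFs, 5.00% in BL_1 and 2.80% in BL_2. With 1 precursor of miR-20b counted in place of 2, these shares were 21.9%, 6.91%, 1.13%, 2.56% and 1.42%, in the same order of libraries. miR-18b made up 13.9% of its reads together with miR-18a in ES-like cells (95% Wilson interval 12.9 to 14.8%), 4.73% in PEBs (4.27 to 5.24%) and 1.23% in PFFs (0.865 to 1.73%). In BL_2 it had 0 of 102 such reads, which allows a share of up to 2.94% by the limit of 3 counts or 3.63% by the Wilson interval, and in BL_1 the pair had 1 read. miR-106a, miR-18b and miR-20b are close relatives of their counterparts, and how the authors credited reads that match both is not given in the sources used here, so their shares are uncertain to that extent. Reads of miR-92a may come from either cluster, so the share of miR-363 is not one of cluster against cluster.

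**Figure D4:**
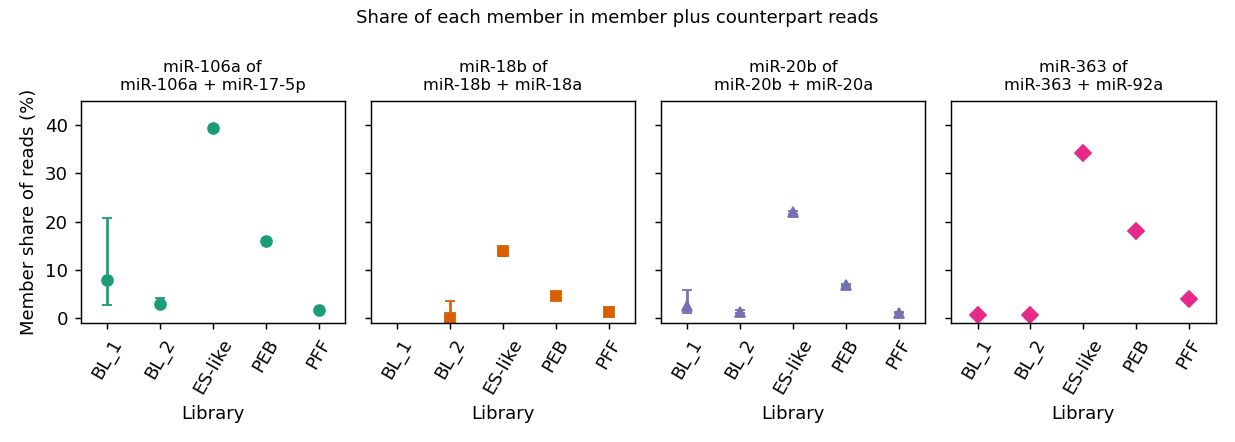
Percent of reads taken by each member in the sum of the member and its miR-17-92 counterpart, by library, with 95% Wilson intervals for counting error and the larger precursor count for miRNAs with 2 precursors. ES-like cells are highest in every pair, at 13.9% for miR-18b to 39.4% for miR-106a, and the miR-18b pair of BL_1, with 1 read, is not drawn.

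The members differed between ES-like cells and PEBs by more than their counterparts did. Between ES-like cells and PEBs, the ratio of member to counterpart differed 3.43-fold for miR-106a (95% interval for counting error 3.35 to 3.52), 3.24-fold for miR-18b (2.84 to 3.71), 3.78-fold for miR-20b (3.70 to 3.87) and 2.39-fold for miR-363 (2.37 to 2.42). Between ES-like cells and PFFs, it differed 37.2-fold for miR-106a (33.5 to 41.2), 13.0-fold for miR-18b (9.02 to 18.6), 24.6-fold for miR-20b (22.6 to 26.8) and 12.4-fold for miR-363 (12.04 to 12.87). No interval reaches 1. In RPM, none of the 7 miRNAs of the miR-17-92 cluster was over 2-fold between ES-like cells and PEBs, where 23.5% of all miRNAs tested were. Of the 7, miR-19b and miR-92a are shared with the miR-106a-363 cluster. The ratios of miR-17-5p, miR-19a and miR-20a were 1.08, 1.08 and 1.11. Those of miR-18a, miR-92a, miR-17-3p and miR-19b were 1.55, 1.66, 1.86 and 1.96. This count depends on the scale. Totals that leave out each library's most abundant miRNA raised all ratios of ES-like cells over PEBs (log2 1.89 to 2.03 for miR-106a). That shift takes miR-17-3p and miR-19b over 2-fold. Against PFFs all 7 were over 2-fold, from 6.20 (miR-17-5p) to 11.8 (miR-92a), where 51% of all miRNAs tested were. No name of the related miR-106b-25 cluster is among those of the table.

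The miRNAs that both clusters encode could not be split. miR-19b had 11884 and 11969 reads under its 2 precursors in ES-like cells, and miR-92a had 252258 and 241284. Counts so near to equal under both precursors give no split between the clusters.

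The study set pluripotent cells (BLs and ES-like cells) against differentiated cells (PEBs and PFFs), and the members did not separate these groups. BLs were low with PFFs, and PEBs were high with ES-like cells. In edgeR's quasi-likelihood test over 279 miRNAs the log2 fold change was 1.11 for miR-106a (SE 2.18), 1.51 for miR-18b (SE 2.26), 1.29 for miR-20b (SE 2.03) and 1.18 for miR-363 (SE 2.06), each with an adjusted p = 0.938. The edgeR test called 0% of miRNAs higher in pluripotent cells, with 21 of 279 at an unadjusted p under 0.05, and DESeq2 called 14, of which 13 were higher in pluripotent cells, with no adjusted p for the 4 members. Without the ES-like library, the log2 fold change by edgeR was -4.41 for miR-106a (adjusted p = 0.161), -3.42 for miR-20b (adjusted p = 0.187) and -3.77 for miR-363 (adjusted p = 0.155).

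The miRNAs nearest to the summed profile of the members over the 5 libraries were miR-194a, miR-196a, miR-376a-5p, miR-34c and miR-490-5p, among 210 candidates with at least 100 reads in ES-like cells. The measure was the root mean square difference of centred log2(RPM + 1), which was 1.14 for miR-194a, 1.19 for miR-196a, 1.22 for miR-376a-5p, 1.31 for miR-34c and 1.34 for miR-490-5p. The members themselves lay at 0.0291 (miR-363), 0.180 (miR-20b), 0.288 (miR-106a) and 0.680 (miR-18b), values that follow in part from the members being summed into the profile, so they are not set against those of the candidates. The nearest candidate, miR-194a, had 795 RPM in ES-like cells and 501 RPM in PEBs, with 2.99 RPM in PFFs and 26.4 and 41.7 RPM in the BLs. Of the counterparts, miR-17-5p lay at 1.57, miR-18a at 1.60, miR-20a at 1.74 and miR-92a at 2.51.

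Markers of other cell types moved with the members in part. The sum of the 3 muscle markers, though not each of them, was lowest in ES-like cells. It was 0.0188% of reads there, against 0.0549% in PEBs, 0.102% in PFFs and 0.107% and 0.244% in the BLs. Of the 3, miR-206 stood at 20.1 RPM in ES-like cells and 20.0 RPM in PEBs, and was at 0 in PFFs. The 5 blood markers summed to 0.0106% of reads or less in every library, with miR-142-3p at 0 in both BLs and miR-451, miR-144 and miR-142-5p at 0 in BL_1. Within them, miR-451 and miR-144 were higher in ES-like cells (13.8 and 18.2 RPM) than in PEBs (0.820 and 0.883 RPM), as the members were, while miR-142-3p and miR-142-5p were lower (6.75 and 10.98 RPM against 27.0 and 55.8 RPM). The fibroblast and mesenchymal markers stood at 23.9% and 40.0% in ES-like cells and PEBs with all 7 detected. The members were at 0.0336% of reads in PFFs, where the sum of those markers, though not each of them, was highest. Whether miR-122, which was high in the same 2 libraries as the members, marks another cell type there was not tested, nor was the part of any of these markers in the result.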

How the data were processed

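Small RNA of 5 pig libraries was analysed from the deposited counts. Per the labels and methods, the authors removed short reads, trimmed adapters with cutadapt 1.10, aligned with Bowtie 1.1.1 to Sscrofa10.2 and assigned miRNAs of miRBase with miRDeep2; SAMtools 1.2 and HTSeq 0.6.1p1 are named in the submitters' processing notes. Raw counts per precursor and library (493 entries) make up the deposited table of miRBase miRNAs, and the deposited table of predicted loci holds read counts, used for 1 alternative total (783 loci, the larger count where a cell held more), and a score, which was not used. Its 5 text columns of locus names were not used either.

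Counts were summed over precursors and divided by the total of mature miRNA reads (RPM). Depth was 113743 (BL_1), 2782150 (BL_2), 6372500 (ES-like), 15849954 (PEB) and 27071931 (PFF) reads. Of the names, 66 have several precursors, 27 of them with identical counts, which may list 1 read 2 times. Ratios have exact conditional binomial 95% intervals and shares have Wilson intervals, from counts divided by the number of precursors or from the larger precursor. Ratios of ratios have normal intervals on the log scale. All of these cover counting error only and hold no spread between cultures. Reads were not collapsed to molecules, so the intervals may be too narrow even for that error. Where a count was 0, 3 counts were used as the limit. A miRNA entered the background of a comparison with at least 10 reads in either library.

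edgeR 4.0.16 (TMM factors, quasi-likelihood test, threshold of 0.05 after Benjamini-Hochberg adjustment) and, as an alternative, DESeq2 1.42.0 were run in R 4.3.3 on all miRNAs that had over 5 reads in 2 of 3 libraries (ES-like against BL) or in 3 of 5 libraries (pluripotent against differentiated), and SE was taken as the log2 fold change divided by the root of F. The edgeR script was tested on simulated data, at dispersions below those estimated from these libraries. All simulated libraries varied alike, so this does not check the assumption made for the lone ES-like library. The labels number the 2 BL libraries and do not say whether the pools came from separate rounds of embryo production. The p-values thus measure only the spread between these samples, which may be technical, with dispersion shared across the miRNAs tested. Tables and figures were made with Python 3.11.15 (pandas 2.3.3, scipy 1.17.1, matplotlib 3.10.9).

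The members, the marker lists and the tests were chosen with earlier results of these data known. Named miRNAs were the 4 members, the miR-17-92 and miR-106b-25 miRNAs, and the 5 miRNAs nearest in profile. Other scales (TMM, size factors, totals that leave out each library's most abundant miRNA or add predicted loci), the larger precursor, pseudocounts, thresholds and left-out libraries were tried. Seed families and a list of X-linked miRNAs had been planned and were not used here, because no sequence table was used and the assemblies of the counts and the gene table differ.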

Additional observations from a re-analysis of the deposited data

How the results depend on the processing

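The log2 ratios of members were recomputed 267 times, under other scales, pseudocounts or precursor counting or with 1 BL left out. Of the 210 values whose ratio has a counting interval, 112 stayed within it and 98 left it, and the other 57, against the BL mean or for miR-18b at 0 reads, have no interval. The sign changed in 10 of the 42 values of BL_1 or BL_2 over PFFs, all for miR-106a or miR-363 under another scale, down to -0.63 for miR-106a in BL_2 with TMM factors, and in 0 of the values whose ratio was over 2-fold. The count of members over 2-fold stayed within 1.5 times in 85 of 92 alternatives. At a 4-fold threshold 2 members, miR-18b and miR-20b, remained over it between ES-like cells and PEBs. They ranked 10 and 12 of 285 miRNAs by ratio. As miR-363, at rank 15, was below 4-fold, fewer than 15 of the 285 miRNAs were over it. Between BL_1 and PFFs 0 members were over 4-fold, and the share of all miRNAs over 4-fold was not computed there. The count over 2-fold between BL_1 and PFFs was also 0 with TMM factors, DESeq2 size factors, totals without the most abundant miRNAs, totals with predicted loci or a pseudocount of 10 RPM. The share of all miRNAs over 2-fold was not computed under these settings. The median log2 ratio of all miRNAs tested was -0.68 in RPM and -1.53 with TMM factors. It was -1.01 with DESeq2 size factors, -1.09 without the most abundant miRNAs and -1.34 with predicted loci. The reads of predicted loci came to 25.5% of the mature reads in PEBs and 132.7% in ES-like cells, so that total lowers the ratios of ES-like cells over PEBs, whereas it raises those of PEBs over BLs (miR-106a over BL_2 from 5.82 to 6.21 on the log2 scale). With a pseudocount of 10 RPM the log2 ratio of miR-18b was 3.43 for ES-like cells over PFFs, and for ES-like cells over BL_1 the lowest values of the other members, with DESeq2 size factors, were 5.67 to 6.24. With the larger precursor, the share of miR-20b with miR-20a was 21.9% in ES-like cells and 6.91% in PEBs, against 1.13% in PFFs, 2.56% in BL_1 and 1.42% in BL_2, since its identical precursor counts are then taken once, and the share of miR-363 with miR-92a was 34.3% in ES-like cells and 18.02% in PEBs. This choice can change the ratio of member to counterpart between libraries for miR-363 only, where it stayed within its interval.

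Between ES-like cells and BLs, edgeR called 60 miRNAs higher in ES-like cells, against 45 with DESeq2, 82 without TMM factors and 87 without a filter. Leaving out either BL library left no residual degree of freedom, and the log2 fold changes then ran from 6.11 (miR-20b) to 7.12 (miR-106a). Between pluripotent and differentiated cells, 14 miRNAs were called with DESeq2, and with each library left out in turn edgeR called 0 to 16, the latter without ES-like cells. Over these fits the log2 fold change ran from -4.41 to 4.99 for miR-106a, from -3.42 to 4.63 for miR-20b and from -3.77 to 4.35 for miR-363, negative without ES-like cells and largest without PEBs. Common dispersion was 1.27 in this comparison and 0.14 between ES-like cells and BLs. Shares against all miRNAs of the same seed were not run, since no sequence table was used. No paired analysis was possible because BLs are the only group with more than 1 numbered library. Depth limits miR-18b and miR-106a in BL_1, where 1 to 3 reads decide a value.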
